A study of Mus musculus with 6 samples.

Results

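The amino acid transporters described here are the genes of 6 solute carrier families, Slc1a, Slc3a, Slc7a, Slc36a, Slc38a and Slc43a, with Slc7a11 left out. They were found by gene symbol alone. Of the 19241 genes listed for newborn interscapular brown fat, 40 belong to them: 14 of the Slc7a family, 11 of Slc38a, 6 of Slc1a, 4 of Slc36a, 3 of Slc43a and 2 of Slc3a. Total RNA from the whole depot was sequenced in bulk in 6 libraries. The 3 control libraries, called WT, came from newborn mice carrying a floxed Fstl1 gene, and the 3 KO libraries came from newborn mice labelled Myf5-Fstl1 KO. Fstl1 encodes a secreted glycoprotein, and Myf5 is a gene active in precursors of both muscle and interscapular brown fat. The comparison asks which transcripts differ in the depot when Fstl1 is deleted in that lineage. The labels do not state whether the WT mice carried a Cre allele, and they do not say that the libraries came from separate animals, so the p-values measure the spread between these samples, which may be technical.

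Amino acids cross membranes on carriers that differ in substrate, coupling and location. Slc1a and Slc38a proteins use the sodium gradient to concentrate glutamate, glutamine and small neutral amino acids, and Slc36a1 and Slc36a2 use protons. The Slc7a family holds the cationic amino acid carriers, which work alone, and light chains that reach the surface bound to a heavy chain, Slc3a2 (CD98) or Slc3a1. Slc36a2 is known as a surface marker of brown adipocytes, and several of the other carriers are known targets of ATF4, the transcription factor of the amino acid response.

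Values are FPKM, fragments scaled to transcript length and to the mapped fragments of the library, so levels can be compared between genes. Fstl1 lay between 54.4 and 130 FPKM in the WT libraries and between 7.93 and 13.1 FPKM in the KO libraries, 12.4% of the WT mean, with a log2 fold change of -2.79 (adjusted p = 0.00979, limma). Ucp1, the uncoupling protein that defines brown adipocytes, was present at 4366 to 6255 FPKM in WT and 1695 to 3592 FPKM in KO (log2 fold change -1.08, adjusted p = 0.0804, limma). All 12 brown adipocyte markers were tested, and 7 had a log2 fold change below 0. The other 5 were above 0, from 0.06 for Cox8b to 0.52 for Ppargc1a. An adjusted p under 0.05 was reached by 2 of the 12, where 2.21% of all tested genes reached it. These were the fatty acid elongase Elovl3 and the lipid droplet protein Plin1, both lower in KO. Their log2 fold changes were -2.34 and -1.36 (adjusted p = 0.0151 and 0.0267, limma). Elovl3 kept this call in 12 of 15 alternative settings and Plin1 in 9, and both lost it when WT replicate 2 or WT replicate 3 was left out and when low values were not filtered. Xist was at 44.8 to 85.5 FPKM in the WT libraries and at most 0.92 in KO, while the Y-linked gene Eif2s3y was at 83.7 to 99.3 FPKM in KO and at most 0.08 in WT. The sex of the animals and the genotype therefore cannot be told apart in any comparison here. Summed skeletal muscle markers reached 1494 to 2185 FPKM in WT and 1652 and 1991 FPKM in KO replicates 2 and 3, and were lowest, at 392 FPKM, in KO replicate 1. In bulk tissue, fewer cells of a type and less RNA per cell cannot be told apart.

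Of the 40 transporters, 27 averaged 0.5 FPKM or more across all libraries and were tested. The summed level of all 40 was 565 to 745 FPKM in the WT libraries and 712 to 774 FPKM in the KO libraries, and 5 genes supplied most of it. Slc36a2, Slc1a5, Slc3a2, Slc43a3 and Slc38a2 together made up 79.5% to 85.8% of the summed FPKM in every library. Slc36a2 alone made up 45.6% to 49.9% in WT and 45.6% to 57.6% in KO. The plot of levels shows the steep order: below the leading 5, the next genes were Slc7a6, Slc38a10 and Slc1a3 at 9.65 to 19.3 FPKM, and all other tested genes had lower means. The 13 genes that were not tested averaged below 0.5 FPKM. For scale, 3 reads on a transcript of 1000 bases correspond to 0.227 FPKM, and to less on a longer transcript. Slc1a7 (0.17 to 0.29 FPKM in WT and 0.34 to 0.47 FPKM in KO) and Slc7a3 (0.21 to 0.47 FPKM) had the highest values among them. These values correspond to an estimated 7.5 to 19.3 reads per library for Slc1a7 and 7.0 to 15.6 for Slc7a3.

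**Figure D1:**
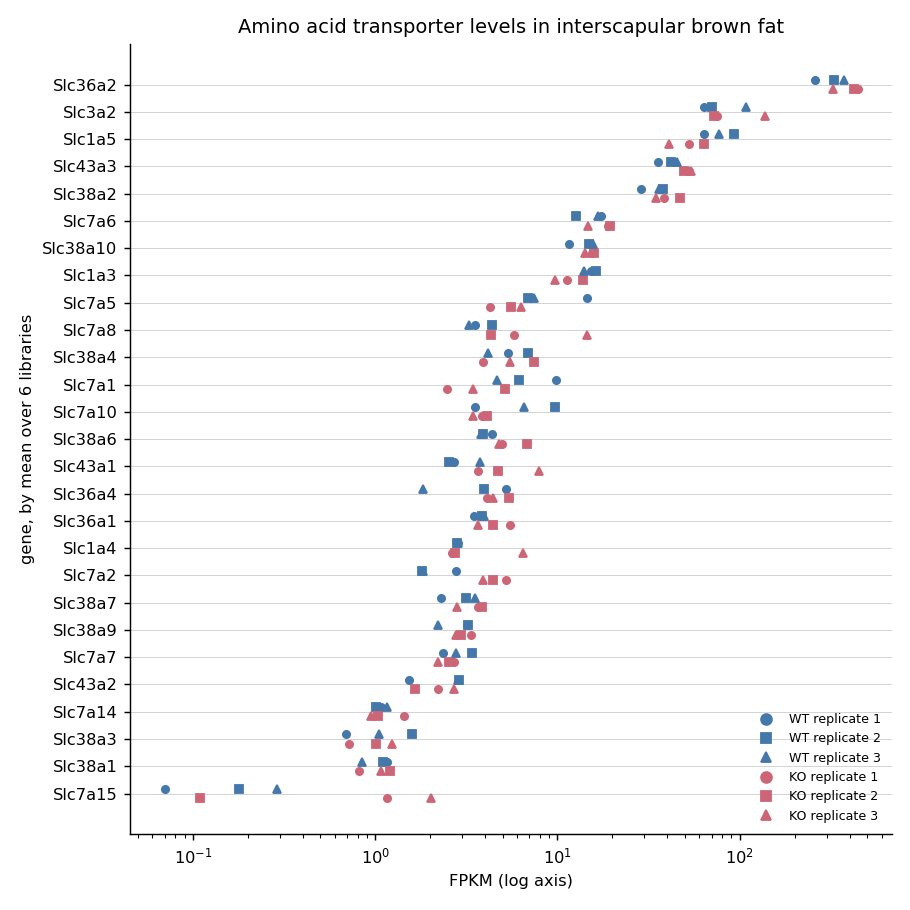
FPKM of the 27 tested amino acid transporters on a log axis, 1 row per gene ordered by the mean over the 6 libraries, with 1 point per library (blue WT, red KO, symbol shape for the replicate number). Slc36a2 stands above all others at 258 to 444 FPKM, and the points of WT and KO do not overlap in 5 of the 27 rows.

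No transporter passed the adjusted threshold. By limma on log2(FPKM + 1) with Benjamini-Hochberg adjustment over all 13331 tested genes at 0.05, 0 of the 27 were called, where 295 of all tested genes (2.21%) were. With 1 library left out the count over all genes ran from 31 (without WT replicate 3) to 370 (without WT replicate 1). At an unadjusted p under 0.05 there were 8 transporters (29.6%), against 19.2% of all tested genes. These were 4 lower in KO (Slc7a1, Slc7a5, Slc1a5 and Slc1a3), where 8.6% of all tested genes were lower at that level, and 4 higher in KO (Slc7a2, Slc43a1, Slc7a8 and Slc43a3), where 10.6% were higher. The count of 8 fell to 3 when WT replicate 1 was left out and also when WT replicate 2 was, and to 4 when either KO replicate 1 or KO replicate 3 was. WT and KO values did not overlap in 5 transporters (18.5%), less than the 24.9% of all tested genes: Slc1a3 and Slc7a5 were lower in all KO libraries (11.4% of all tested genes were) and Slc7a2, Slc43a3 and Slc38a6 were higher in all of them (13.6% of all tested genes were). By sign alone, 18 of the 27 log2 fold changes (66.7%) were above 0, against 51.6% of all tested genes, and 9 were below. The median was 0.16 beside 0.01 over all tested genes. Among the 18 is Slc7a15, which passed the filter only through 2 KO libraries.

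**Figure D2:**
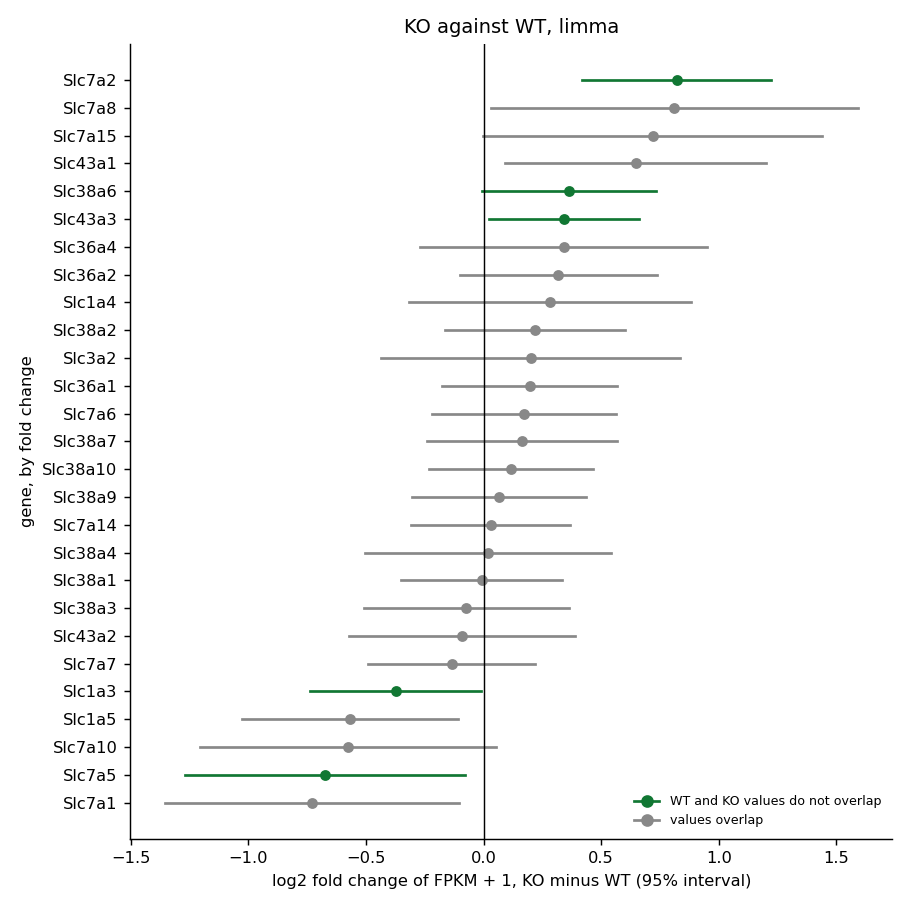
log2 fold change of FPKM + 1, KO minus WT, for the 27 tested transporters, with 95% limma confidence intervals; green marks genes whose WT and KO values do not overlap. Values run from -0.73 for Slc7a1 to 0.82 for Slc7a2, and the intervals of 8 genes leave out 0.

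Among the cationic amino acid carriers, which bring arginine, lysine and ornithine into cells, the 2 most abundant genes had fold changes of opposite sign, neither past the adjusted threshold. Slc7a2, which encodes CAT-2, was at 2.78, 1.81 and 1.82 FPKM in WT replicates 1 to 3, against 5.25, 4.41 and 3.88 FPKM in KO replicates 1 to 3. Every KO library was above every WT library. The mean went from 2.14 ± 0.557 to 4.51 ± 0.691 FPKM (SD, n = 3 each), with a log2 fold change of 0.82 (SE 0.18, 95% interval 0.42 to 1.22), and it was the transporter closest to the threshold (adjusted p = 0.0533, limma). Across the alternatives in which it was tested its adjusted p ran from 0.0415 to 0.208, and it passed without WT replicate 1 (0.0415) and with a robust variance prior (0.0432). Slc7a1, which encodes CAT-1, the widely expressed form, was at 9.79, 6.13 and 4.64 FPKM in WT, against 2.48, 5.14 and 3.45 FPKM in KO. The groups overlapped, since KO replicate 2 exceeded WT replicate 3. The means were 6.85 ± 2.65 and 3.69 ± 1.35 FPKM (SD, n = 3 each), with a log2 fold change of -0.73 (SE 0.28, adjusted p = 0.199, limma), which was -0.47 without WT replicate 1.

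The ratio of Slc7a1 to Slc7a2 was 3.52, 3.39 and 2.55 in the WT libraries and 0.472, 1.17 and 0.889 in the KO libraries. Slc7a1 was thus the more abundant of the 2 transcripts in all WT libraries, and Slc7a2 was in KO replicates 1 and 3. The mean log2 ratio differed by -1.99 in KO against WT, with no overlap (exact two-sided permutation p = 0.1, the smallest that 3 libraries against 3 allow). Leaving out each library in turn gave differences from -2.27 to -1.62. This ratio and the 4 others given below were chosen after their values were seen, and the smallest p adjusted over the 5 was 0.167. The remaining carriers of the group were low. Slc7a14, which lies in lysosomes, was at 0.95 to 1.43 FPKM over all 6 libraries (log2 fold change 0.03), Slc7a3 was not tested, and Slc7a4 was listed at 0.02 FPKM in every library.

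Slc3a2, the heavy chain, was at 63.6, 70.4 and 108 FPKM in WT, against 74.9, 72.0 and 137 FPKM in KO. Replicate 3 was the highest of its group in both genotypes, and the groups overlapped (log2 fold change 0.20, SE 0.28, 95% interval -0.44 to 0.84, adjusted p = 0.748, limma). The log2 fold change changed sign, to -0.10, without KO replicate 3. The other heavy chain, Slc3a1, whose usual site is kidney and intestine, was at 0 to 0.19 FPKM, and its partner Slc7a9 at 0 to 0.04 FPKM. Slc7a13, another kidney light chain, was at 0 to 0.07 FPKM.

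The light chains of Slc3a2 in this set (Slc7a11, a further partner, was left out) had a nearly constant sum, while their mix differed. Slc7a5, Slc7a6, Slc7a7, Slc7a8 and Slc7a10 together came to 36.7 to 41.2 FPKM in WT and 35.4 to 41.2 FPKM in KO. The ratio of Slc3a2 to this sum was 1.54, 1.90 and 2.96 in WT and 2.12, 2.01 and 3.33 in KO, with overlap (log2 difference 0.24, exact two-sided permutation p = 0.5). The difference was 0.0048 when KO replicate 3 was left out, 0.0285 for WT replicate 1 and 0.497 for WT replicate 3. The heavy chain transcript thus exceeded the 5 light chains in every library.

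Slc7a5 encodes LAT1, an exchanger that imports leucine and other large neutral amino acids. Its level was 14.5, 6.86 and 7.45 FPKM in WT, against 4.26, 5.56 and 6.33 FPKM in KO. All KO libraries were below all WT libraries, and WT replicate 1 stood far above the other WT libraries. The log2 fold change was -0.67 (SE 0.26, adjusted p = 0.211, limma), and -0.37 without WT replicate 1. Slc7a8 encodes LAT2, an exchanger of overlapping substrates. Its level was 3.53, 4.37 and 3.25 FPKM in WT, against 5.77, 4.34 and 14.4 FPKM in KO. KO replicate 3 lay far above the rest, and KO replicate 2 lay within the WT range. The log2 fold change was 0.81 (SE 0.34, adjusted p = 0.244, limma), and 0.36 without KO replicate 3.

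Slc7a5 made up 35.2%, 18.5% and 20.3% of the light chain sum in WT and 12.0%, 15.5% and 15.4% in KO. Slc7a8 made up 8.57%, 11.8% and 8.86% in WT and 16.3%, 12.1% and 35.1% in KO. Both shares separated the groups, by a narrow margin for Slc7a8. The ratio of Slc7a5 to Slc7a8 was 4.11, 1.57 and 2.29 in WT and 0.738, 1.28 and 0.438 in KO, so the KO values were all below the WT values (log2 difference -1.72, exact two-sided permutation p = 0.1). Leaving out each library in turn gave -2.11 to -1.34.

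**Figure D3:**
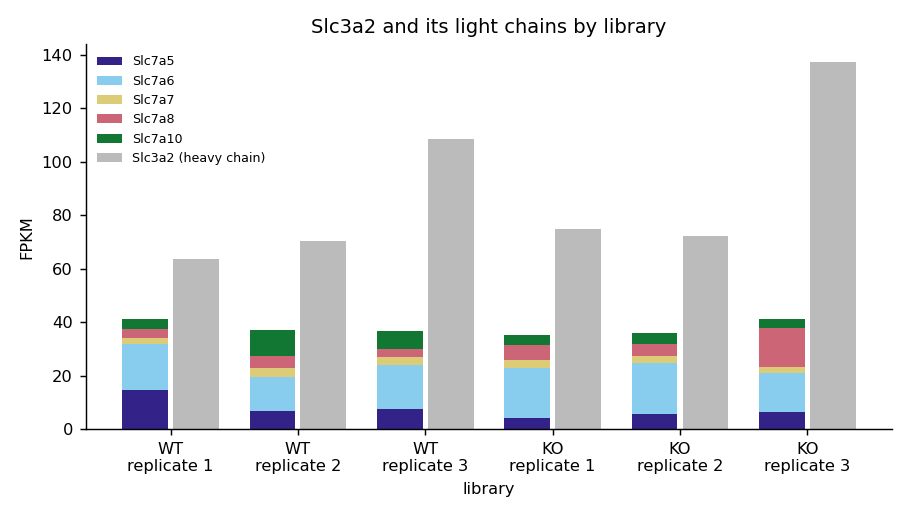
FPKM of the heavy chain Slc3a2 (grey) beside the stacked FPKM of 5 light chains (colours) in each of the 6 libraries. The stacks end between 35.4 and 41.2 FPKM in all libraries, the Slc7a5 layer is thinner in KO, and the Slc7a8 layer is thickest in KO replicate 3.

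Slc7a6 encodes y+LAT2, an exchanger of cationic for neutral amino acids, and was the most abundant light chain in every library. Its level was 17.3, 12.7 and 16.6 FPKM in WT, against 18.8, 19.3 and 14.7 FPKM in KO, with overlap (log2 fold change 0.17, adjusted p = 0.627, limma). Slc7a7, its close relative y+LAT1, which macrophages also use, was at 2.36, 3.38 and 2.79 FPKM in WT, against 2.69, 2.54 and 2.22 FPKM in KO, with overlap (log2 fold change -0.14, adjusted p = 0.684, limma). Slc7a10 encodes Asc-1, an exchanger of small neutral amino acids known as a surface marker of white adipocytes. Its level was 3.53, 9.70 and 6.56 FPKM in WT, against 3.83, 4.12 and 3.46 FPKM in KO. The WT libraries spread widely, and WT replicate 1 lay within the narrow KO range (log2 fold change -0.58, SE 0.28, adjusted p = 0.299, limma; -0.29 without WT replicate 2 and -0.91 without WT replicate 1). Of the exon bases of Slc7a10, 17.9% lie opposite exons of Lrp3 on the other strand, as do 7.0% of those of Slc7a7 opposite Oxa1l and 6.95% of those of Slc7a2 opposite a long noncoding RNA. How the counting treated strand is not given in the sources used here, so reads from these pairs may not be told apart.

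The sequences before the transcription starts of 4 of these genes are shown to set the heavy chain beside light chains whose log2 fold changes had opposite signs (Slc7a8 and Slc7a10) and beside Slc7a1. Each is the 120 bases before a RefSeq start (GRCm38.p6), 5′ to 3′ in the direction of the gene, with capitals for GGGCGG on either strand (the core of the GC box) or for TATAAA (the TATA box). The windows of Slc3a2 and Slc7a10 lie inside the annotated genes (8706882 to 8723369 on chromosome 19 and 35186095 to 35201116 on chromosome 7). They therefore precede internal starts, as does that of the second start of Slc7a1.
Slc3a2, chr19:8713898-8714017, minus strand: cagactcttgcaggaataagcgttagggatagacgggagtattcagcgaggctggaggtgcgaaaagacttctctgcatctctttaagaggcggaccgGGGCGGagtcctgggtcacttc
Slc7a1, chr5:148399905-148400024, minus strand: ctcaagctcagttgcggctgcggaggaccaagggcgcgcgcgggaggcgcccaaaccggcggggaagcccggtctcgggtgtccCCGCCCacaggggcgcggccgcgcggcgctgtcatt
Slc7a1, second start, chr5:148392816-148392935, minus strand: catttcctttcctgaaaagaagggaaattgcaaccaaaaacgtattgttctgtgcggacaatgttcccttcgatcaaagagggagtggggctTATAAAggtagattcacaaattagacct
Slc7a8, chr14:54781887-54782006, minus strand: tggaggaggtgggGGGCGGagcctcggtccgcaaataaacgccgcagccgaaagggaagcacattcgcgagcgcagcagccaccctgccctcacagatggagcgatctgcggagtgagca
Slc7a10, chr7:35186265-35186384, plus strand: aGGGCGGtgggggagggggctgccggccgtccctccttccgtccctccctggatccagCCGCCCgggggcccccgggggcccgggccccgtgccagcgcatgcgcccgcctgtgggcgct
Over the full 250 bases before each start, 29 of the 40 transporters had a window. Those with none in the table used are Slc1a5, Slc7a2, Slc7a3, Slc7a4, Slc7a5, Slc7a12, Slc7a13, Slc36a2, Slc38a1, Slc38a3 and Slc43a3. GGGCGG, searched on both strands, was in the windows of 21 of the 29, against 35.4% of all 27025 genes with a window. It was in those of 17 of the 20 tested transporters and 4 of the 9 that were not tested. Taking for each gene its window with the highest GC content, the median was 62.8% for the tested transporters and 54.8% for the others. The median over all windows, with no highest window taken, was 52.4%, so it is not a like measure. GGGCGG holds only G and C. TATAAA was in the windows of 6 of the 29 (14.3% of all genes) and CCAAT in those of 9 (37.5% of all genes). TGATGNAA, the letters of the amino acid response element to which ATF4 binds, was found for 1 of the 29, Slc7a7 (3.91% of all genes). TCACGTGA, a site letter string of the lysosomal regulators TFEB and TFE3, was found for 0 of the 29 (0.907% of all genes).

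Slc1a5 encodes ASCT2, a sodium-dependent exchanger known for glutamine uptake. Its level was 63.3, 93.3 and 77.3 FPKM in WT, against 52.4, 63.9 and 41.1 FPKM in KO. KO replicate 2 and WT replicate 1 met at nearly the same level, so the groups overlapped slightly. The means were 78.0 ± 15.1 and 52.5 ± 11.4 FPKM (SD, n = 3 each), with a log2 fold change of -0.57 (SE 0.20, 95% interval -1.02 to -0.11, adjusted p = 0.179, limma). Slc1a3, the glutamate and aspartate carrier GLAST, was at 15.3, 16.2 and 14.0 FPKM in WT, against 11.3, 13.7 and 9.65 FPKM in KO. All KO libraries were below all WT libraries, although KO replicate 2 and WT replicate 3 were close (log2 fold change -0.37, SE 0.16, adjusted p = 0.249, limma). Slc1a4, the related carrier ASCT1, was named after its values were seen: it lay between 2.63 and 2.86 FPKM in 5 libraries and at 6.48 FPKM in KO replicate 3. Its log2 fold change of 0.28 (adjusted p = 0.601, limma) was -0.06 without that library. The ratio of Slc1a5 to Slc1a4 had a log2 difference of -0.92, with overlap (exact two-sided permutation p = 0.2), and of -0.33 without KO replicate 3. The glutamate carriers Slc1a1 and Slc1a2, abundant in neurons and astrocytes, were at 0.04 to 0.24 and 0.02 to 0.07 FPKM.

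Slc36a2, the proton-coupled carrier of glycine, alanine and proline, was at 258, 327 and 372 FPKM in WT, against 444, 422 and 325 FPKM in KO. KO replicate 3 lay at the level of WT replicate 2, and the other KO libraries exceeded all WT libraries. The means were 319 ± 57.5 and 397 ± 63.6 FPKM (SD, n = 3 each), with a log2 fold change of 0.32 (95% interval -0.10 to 0.74, adjusted p = 0.388, limma), which was 0.17 without WT replicate 1. In the same KO libraries Ucp1 was at 48.9% of its WT mean, so the mean levels of these brown adipocyte genes differed in opposite directions, neither passing the threshold. The ratio of Slc36a2 to Slc7a10 was 73.0, 33.7 and 56.7 in WT and 116, 102 and 93.8 in KO, with no overlap (log2 difference 0.999, exact two-sided permutation p = 0.1; 0.69 without WT replicate 2). Slc36a1, which acts at lysosomes, was at 3.49 to 5.49 FPKM over all libraries (log2 fold change 0.20, adjusted p = 0.554, limma). Slc36a4 was at 1.83 to 5.40 FPKM (log2 fold change 0.34, adjusted p = 0.528, limma). The log2 fold change of Slc36a4 was 0.02 without WT replicate 3. Slc36a3, which lies next to Slc36a2 on chromosome 11 with 6746 bases between them, was at 0 to 0.16 FPKM.

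**Figure D4:**
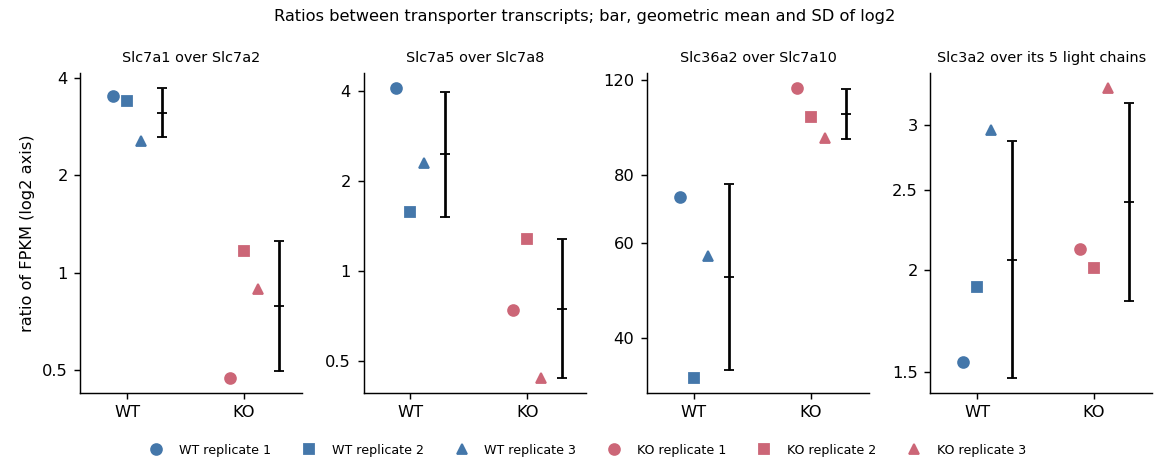
Ratios of FPKM between transporters in each library on log2 axes: Slc7a1 over Slc7a2, Slc7a5 over Slc7a8, Slc36a2 over Slc7a10, and Slc3a2 over the sum of 5 light chains. Points are libraries and bars are the geometric mean with the SD of the log2 ratio (n = 3); WT and KO points are apart in the first 3 panels, chosen after their values were seen, and overlap in the last.

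In the Slc38a family, the sodium-coupled carriers of glutamine and alanine, 0 of 8 tested genes had an unadjusted p under 0.05, against 19.2% of all tested genes. Slc38a2 encodes SNAT2, the form that cells raise when amino acids are scarce. Its level was 28.7, 37.9 and 35.95 FPKM in WT, against 38.2, 46.9 and 34.7 FPKM in KO, with overlap (log2 fold change 0.22, 95% interval -0.16 to 0.60, adjusted p = 0.518, limma). Slc38a10 was at 11.6, 14.8 and 15.6 FPKM in WT, against 15.4, 15.9 and 14.2 FPKM in KO (log2 fold change 0.12, adjusted p = 0.731, limma). Slc38a6 was at 4.36, 3.91 and 3.79 FPKM in WT, against 4.97, 6.79 and 4.77 FPKM in KO (log2 fold change 0.36, SE 0.16, adjusted p = 0.270, limma). The log2 fold change was 0.23 without KO replicate 2. Slc38a6 was the member of its family whose groups did not overlap (12.5% of those tested, against 24.9% of all tested genes). Slc38a9, the lysosomal protein that signals arginine to mTORC1, was at 3.17, 3.24 and 2.22 FPKM in WT, against 3.37, 2.95 and 2.78 FPKM in KO (log2 fold change 0.07, adjusted p = 0.870, limma). Slc38a1, which encodes SNAT1, was at 1.16, 1.11 and 0.85 FPKM in WT, against 0.81, 1.20 and 1.08 FPKM in KO (log2 fold change -0.01, adjusted p = 0.986, limma). Both sat at about the same level in the 2 genotypes, within 95% intervals of -0.30 to 0.44 for Slc38a9 and -0.35 to 0.33 for Slc38a1. The other tested members, Slc38a3, Slc38a4 and Slc38a7, had log2 fold changes between -0.07 and 0.16. Slc38a5, Slc38a8 and Slc38a11 were at 0 to 0.22, 0 to 0.03 and 0 to 0.04 FPKM.

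Slc43a3, which carries purine nucleobases in spite of its family name, was at 35.8, 42.0 and 45.2 FPKM in WT, against 52.8, 49.1 and 54.3 FPKM in KO. All KO libraries were above all WT libraries (41.0 ± 4.77 and 52.0 ± 2.64 FPKM, SD, n = 3 each; log2 fold change 0.34, SE 0.14, adjusted p = 0.235, limma). Slc43a1 encodes LAT3, a carrier of branched-chain amino acids, and was named after its values were seen. Its level was 2.70, 2.53 and 3.76 FPKM in WT, against 3.68, 4.70 and 7.93 FPKM in KO. The groups overlapped by a small margin between WT replicate 3 and KO replicate 1 (log2 fold change 0.65, SE 0.24, adjusted p = 0.199, limma), and the value was 0.38 without KO replicate 3. Slc43a2, which encodes LAT4, had a log2 fold change of -0.09 (adjusted p = 0.861, limma). Slc7a15, named likewise, had passed the filter through 2 KO libraries: it was at 0.07, 0.18 and 0.29 FPKM in WT, against 1.16, 0.11 and 2.03 FPKM in KO, so KO replicate 2 was within the WT range. Slc7a12 was listed at 0 to 0.04 FPKM.

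Libraries contributed unequally to these values. Among the 27 tested transporters, WT replicate 1 had the lowest value of the 6 libraries for 10 (37.0%, against 20.2% of all tested genes). KO replicate 2 had the highest for 8 (29.6%, against 22.1%), KO replicate 3 for 6 (22.2%, against 14.9%) and KO replicate 1 for 5 (18.5%, against 10.5%). WT replicate 3 had the highest for 0, against 18.0% of all tested genes. Slc1a4, Slc3a2, Slc7a8, Slc7a15, Slc43a1 and Slc43a3 were the 6 highest in KO replicate 3. All 12 macrophage markers had a log2 fold change above 0 (median 0.41, 0 called), with a summed level of 145 to 213 FPKM in WT and 204 to 278 FPKM in KO and none of the markers at 0 in every library. Other marker lists also leaned to 1 side. Of 10 fibroblast markers 9 were above 0 (median 0.29). Below 0 were 13 of 14 muscle markers (median -0.49) and 8 of 11 erythroid markers (median -0.57). The summed muscle markers were low in KO replicate 1 alone (392 FPKM), and KO replicates 2 and 3 lay within the WT range. Summed erythroid markers were at 3550, 5149 and 14484 FPKM in WT replicates 1 to 3. In KO they were at 3155 to 3990 FPKM, so WT replicate 3 stood far above all other libraries. The part of macrophages or other cell types in the higher values of Slc7a2, Slc7a8, Slc43a1 and Slc43a3 was not tested. Of the other marker lists, 0 of 10 endothelial, 0 of 14 muscle and 0 of 11 erythroid genes tested were called. Likewise 0 of 6 Schwann and 0 of 2 neuronal genes were, where 2.21% of all tested genes were called. The epidermal genes Trp63 and Krt10 had log2 fold changes of -0.52 and -0.17, with all KO libraries below all WT libraries, and neither was called. Called and higher in KO were 1 of 10 fibroblast genes (Thy1, log2 fold change 1.94) and 1 of 3 epidermal genes (Sbsn, 0.89). Thy1 kept this call in 12 of 15 alternative settings, losing it without WT replicate 3, without KO replicate 2 and with no filter, and Sbsn kept it in 7 of 14, losing it when any library except KO replicate 3 was left out.

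The amino acid response, in which ATF4 raises transporters and synthesis enzymes when amino acids run short, gave context for the members it is known to act on. Of 30 listed genes 28 were tested, and 4 fell in KO by the limma threshold while 0 rose, where 2.21% of all tested genes were called. These were the transcription factor Atf5, the mitochondrial folate enzyme Mthfd2 and the tRNA synthetases Aars and Gars. Atf5 was at 181, 148 and 180 FPKM in WT, against 94.8, 95.2 and 70.3 FPKM in KO (log2 fold change -0.97, adjusted p = 0.0318, limma). Mthfd2 was at 32.9, 13.8 and 13.3 FPKM in WT, against 2.48, 6.68 and 2.76 FPKM in KO (log2 fold change -2.05, adjusted p = 0.0391, limma). The KO libraries were below the WT libraries for both. Aars and Gars had log2 fold changes of -0.87 and -0.68 (adjusted p = 0.0406 and 0.0391, limma). At an unadjusted p under 0.05 there were 15 of the 28 (53.6%, against 19.2% of all tested genes), with 13 lower (8.6% of all tested genes) and 2 higher (Eif2ak4 and Ddit4, against 10.6%). WT and KO values did not overlap in 16 of them (57.1%, against 24.9% of all tested genes), and the median log2 fold change of the list was -0.40 beside 0.01 over all tested genes. The count of 4 was 3 when WT replicate 1 was left out and 1 when either KO replicate 1 or KO replicate 2 was. It was 0 for each of the other 3 libraries and when low values were not filtered. The genes counted were partly others of the list. Without WT replicate 1 Mthfd2 and Aars lost their call, and without KO replicate 1 all 4 named genes did. Over 15 alternative settings Atf5 and Gars kept their call in 8, and Mthfd2 and Aars in 7. With 1 library left out the count at an unadjusted p under 0.05 stayed between 14 and 18.

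Some of the transporters known as ATF4 targets are given here, not all of them, and their fold changes differed from one another in size and sign. Slc7a1, Slc7a5 and Slc1a5 had log2 fold changes of -0.73, -0.67 and -0.57, and Slc3a2 and Slc38a2 had 0.20 and 0.22, none of them past the adjusted threshold. With 1 library left out, Slc3a2 ran from -0.10 (without KO replicate 3) to 0.43, and Slc38a2 from 0.10 to 0.31. In the same way Slc7a1 ran from -0.94 to -0.47, Slc7a5 from -0.86 to -0.37 and Slc1a5 from -0.72 to -0.41. Asns, asparagine synthetase and a standard readout of the response, was at 108, 84.6 and 98.1 FPKM in WT, against 56.0, 66.4 and 63.2 FPKM in KO (log2 fold change -0.64, adjusted p = 0.0626, limma), and Atf4 itself had -0.38 (adjusted p = 0.452, limma).

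**Figure D5:**
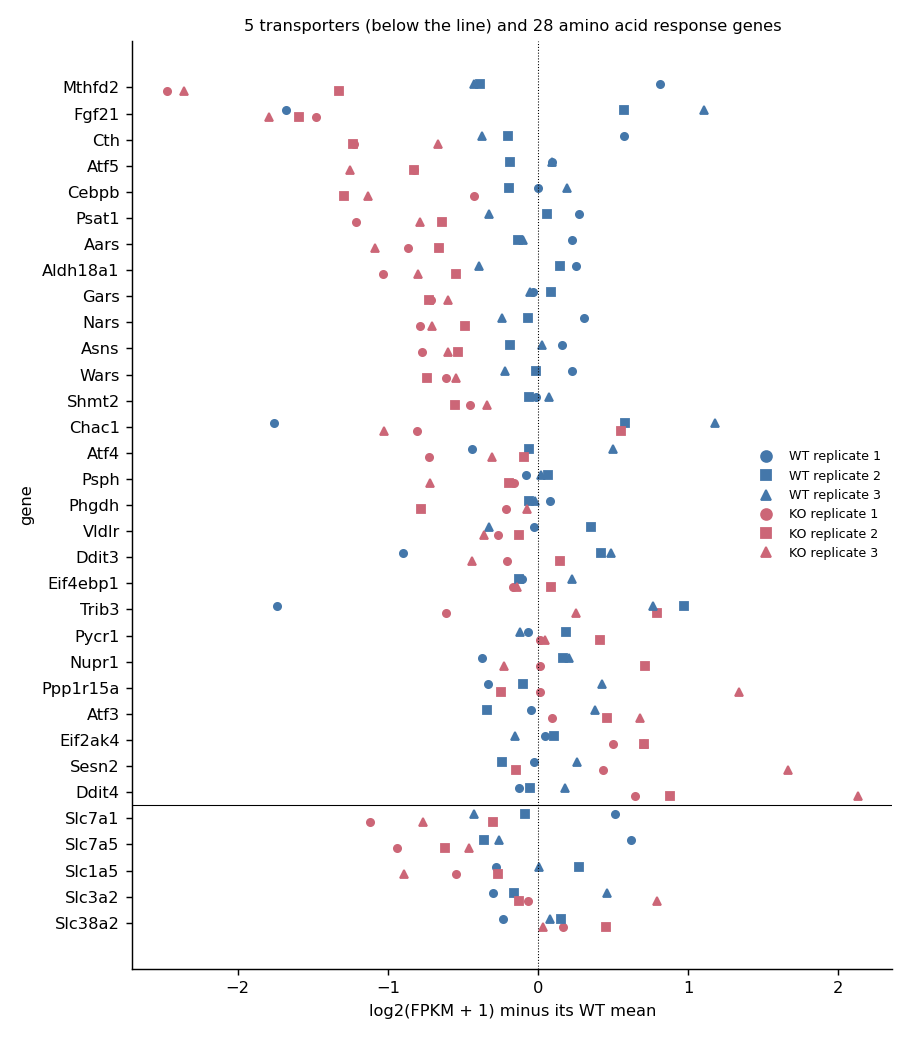
log2(FPKM + 1) minus its WT mean, 1 point per library (blue WT, red KO, symbol shape for the replicate number), for all 28 tested amino acid response genes ordered by fold change, with 5 transporters known as ATF4 targets below the line. The log2 fold change is below 0 for 20 of the 28 genes and above 0 for 8, and among the transporters it runs from -0.73 for Slc7a1 to 0.22 for Slc38a2.

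Among carriers of other families, 2 of 21 tested genes were called, both lower in KO, where 2.21% of all tested genes were called. Slc16a10, which encodes TAT1, a carrier of aromatic amino acids, was at 14.7, 11.1 and 12.2 FPKM in WT, against 6.88, 6.30 and 5.18 FPKM in KO (log2 fold change -0.94, adjusted p = 0.0324, limma). Slc25a22, a mitochondrial glutamate carrier, was at 23.6, 32.7 and 34.9 FPKM in WT, against 18.8, 14.0 and 14.6 FPKM in KO (log2 fold change -0.90, adjusted p = 0.0483, limma). WT and KO values did not overlap for either gene. Of the enzymes of glutamine, glutamate, aspartate and alanine, 2 of 17 tested genes were called, beside the same 2.21%. Got1, the cytosolic aspartate aminotransferase, was lower (log2 fold change -1.01, adjusted p = 0.0406, limma), and Gfpt2, which uses glutamine to make glucosamine phosphate, was higher (log2 fold change 0.78, adjusted p = 0.0418, limma). Glul, glutamine synthetase, was at 208, 273 and 264 FPKM in WT, against 520, 318 and 821 FPKM in KO, all KO libraries above all WT libraries (log2 fold change 1.06, adjusted p = 0.107, limma).

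Of 36 tested genes of lysosomal amino acid sensing and mTORC1, 1 was called, near the 2.21% of all tested genes. This gene was Sesn1, a member of the sestrin family of leucine sensors. Its level was 10.5, 10.4 and 8.32 FPKM in WT, against 18.6, 18.5 and 30.0 FPKM in KO (log2 fold change 1.09, adjusted p = 0.0391, limma). The list had 13 genes at an unadjusted p under 0.05, 36.1% of those tested against 19.2% of all tested genes, of which 7 were lower (8.6% of all tested genes) and 6 higher (10.6%). Of 25 genes of branched-chain amino acid catabolism, which brown fat uses as a fuel pathway, 0 were called. There 1 gene had an unadjusted p under 0.05 (Aldh6a1, limma), 4.0% against 19.2% of all tested genes, and the list median was -0.03. Each of the called genes Slc16a10, Slc25a22, Got1, Gfpt2 and Sesn1 lost its call when WT replicate 2 or WT replicate 3 or KO replicate 1 or KO replicate 2 was left out, with adjusted p up to 0.102, 0.203, 0.173, 0.128 and 0.140 over the alternatives, and none changed direction. All 5 also lost it when low values were not filtered, as did Slc25a22 with quantile normalization and with eBayes without the trend, all but Got1 when KO replicate 3 was left out, and Gfpt2 and Sesn1 when WT replicate 1 was.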

How the data were processed

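RNA of whole interscapular brown fat was measured in 6 libraries, grouped and numbered by their titles. The deposited values are FPKM, per the file headers, rounded by the authors to 2 decimals. The submitters' processing notes name HISAT2 2.0.4, Bowtie2 2.2.5, DESeq2 and the mouse build mm10 without a role for each, and the counting tool, annotation and strand handling are not given in the sources used here. FPKM are not counts, so no count test was run. Steps between low FPKM values of genes with 1 transcript put the depth at 13900000 to 14900000 reads per library, with 78.2% to 82.9% of the values used within 0.2 of a whole read, so this is an estimate only.

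All 19241 genes were transformed as log2(FPKM + 1). Those with a mean of at least 0.5 FPKM (13331 genes) were fitted with limma 3.58.1 in R 4.3.3 (lmFit, eBayes with trend), KO against WT, with Benjamini-Hochberg adjustment over all of them and a threshold of 0.05. A fold change on this scale understates that of low genes. The script was tested on simulated data. Ratios between transporters were compared by an exact two-sided permutation test over libraries. Promoter windows and gene positions were taken from RefSeq (GRCm38.p6), where all 40 symbols matched, and exon overlaps from GENCODE vM21.

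The transporters and gene lists were chosen with earlier results of these data known. Values in every library were given for transporters past the threshold or without overlap, the 8 with the highest mean, the heavy chains and their light chains, and Slc1a5, Slc7a1, Slc38a1, Slc38a2 and Slc38a9. Others were given by range, except those said to be named after their values were seen. Of the other lists, genes past the threshold or up to 3 with the smallest p were named, and Asns, Atf4, Eif2ak4, Ddit4 and Glul were added after their values were seen. Alternatives were the pseudocount, the filter, 3 scalings (the trimmed mean of M-values without weights), 2 settings of eBayes, a replicate block and leaving out each library.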

Additional observations from a re-analysis of the deposited data

How the results depend on the processing

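Each fold change was recomputed under up to 15 alternatives (14 for genes with a mean below 5 FPKM) and each ratio under 8. Of the 27 transporters, 18 kept their direction in each alternative in which they were tested, and 1, Slc7a2, was ever called: the count of called transporters was 1 with robust eBayes, 0 to 1 with 1 library left out (1 without WT replicate 1), and 0 elsewhere. The count over all genes was 295, but 35 with no filter on low values, 167 with the replicate block, and 31 to 370 with 1 library left out (31 for WT replicate 3, 39 for WT replicate 2, 87 for KO replicate 3, 89 for KO replicate 2, 121 for KO replicate 1 and 370 for WT replicate 1). The count of called amino acid response genes, recomputed as an addition chosen after seeing the data, was 0 with no filter on low values, 0 with the replicate block, and 0 to 3 with 1 library left out. Fstl1 was called in 14 of the 15, the exception being no filter on low values (adjusted p = 0.0606, limma). Without the filter more genes are tested, and with a library left out fewer samples enter. Otherwise the cause was not tested.

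Directions changed as follows. Slc38a4 had -0.0291 with quantile normalization and -0.0007 with median-of-ratios scaling and -0.0078 with trimmed mean of M-values scaling, and Slc7a14 had -0.0155 with quantile normalization. With 1 library left out, log2 fold changes ranged over -0.169 to 0.216 for Slc38a4, -0.0658 to 0.0929 for Slc7a14, -0.059 to 0.463 for Slc1a4, -0.0774 to 0.0718 for Slc38a1, -0.0052 to 0.194 for Slc38a10, -0.222 to 0.0859 for Slc38a3, -0.0628 to 0.136 for Slc38a9, -0.097 to 0.430 for Slc3a2 and -0.295 to 0.0362 for Slc43a2.

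Libraries that carry the same number shared little: their departures from the group means had correlations of 0.068, 0.043 and 0.043 over genes, and nothing in the labels pairs them. With the replicate block the smallest adjusted p of a transporter was 0.0546 (limma), and 0 were called. Of the called genes of other lists, Gars, Atf5, Mthfd2, Aars, Slc25a22, Gfpt2, Sesn1, Plin1 and Sbsn lost their call with it. Among the limits, 3 libraries per group allow no exact p below 0.1, genotype coincides with sex, and 3 reads on a transcript of 1000 bases correspond to 0.227 FPKM.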
